A study of Mus musculus with 6 samples.

Results

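The 10 genes described here are p53 targets of cell cycle arrest, feedback and apoptosis: Cdkn1a, Mdm2, Ccng1, Bax, Bbc3, Pmaip1, Phlda3, Eda2r, Trp53inp1 and Zmat3. They were taken by symbol from tables of 24848 genes, all 10 were found, and all 10 were among the 15848 genes expressed highly enough to be tested. RNA was sequenced from the brains of 3 E4f1 KO and 3 wild type (WT) mouse embryos at E14.5, in mid-gestation. The labels name the genotypes only as E4f1 KO and WT. The sources used here do not give the design of the allele, the cells that carry the deletion, the strain or the litters, so p-values measure the spread between these 6 brains. E4F1 is a DNA-binding zinc finger protein, and the series title ties it to pyruvate metabolism and to Elongator, a complex that modifies tRNAs.

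The transcription factor p53, encoded by Trp53 in the mouse, is kept low by the ubiquitin ligase MDM2, whose own gene p53 activates. When DNA damage or other stress frees p53 from MDM2, it binds a response element made of a pair of half-sites and activates genes that stop the cell cycle, damp p53 itself or start apoptosis. E4F1 is known to bind p53 and to act on it as an atypical ubiquitin ligase, and the developing brain is known to be sensitive to excess p53. Several p53 targets, among them Bbc3, Pmaip1 and Sesn2, can also be activated by stress factors such as ATF4 and CHOP.

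Promoter windows from 250 bases before to 50 bases after each annotated start were available for 7 of the 10 genes, in 10 windows (RefSeq, GRCm38). The windows were searched for the p53 response element, a run of 20 bases made of a pair of 10-base half-sites without a spacer, which reads the same on both strands. The closest matches are shown because they mark where p53 could bind near the starts of these genes. The 20 matching bases are in capitals, with 20 bases on either side, each on the strand of its gene.
Cdkn1a: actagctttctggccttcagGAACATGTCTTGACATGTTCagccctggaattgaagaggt
Ccng1: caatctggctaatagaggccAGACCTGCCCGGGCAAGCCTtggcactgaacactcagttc
Bbc3: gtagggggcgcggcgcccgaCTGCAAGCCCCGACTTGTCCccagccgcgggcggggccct
Bax: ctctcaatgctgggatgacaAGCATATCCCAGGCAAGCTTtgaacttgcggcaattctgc
The Cdkn1a stretch lies on the plus strand at chr17:29090908-29090967, before the upstream of its 2 starts in the promoter table, and its match begins 51 bases before that start. The Ccng1 stretch lies on the minus strand at chr11:40755442-40755501, and its match begins 195 bases before the start. Both differ from the full element in 1 base, a match found in 29 of 32851 windows of the same length over all genes (0.0883%). The Bbc3 stretch (plus strand, chr7:16309466-16309525) and the Bax stretch (minus strand, chr7:45467070-45467129) each differ from it in 3 bases. The share of all windows with a match that loose was not counted. With at most 2 mismatches the share was already 0.798%. The Bbc3 stretch precedes the first of 3 starts in the promoter table, and lies inside the wider RefSeq span of the gene given below, which begins further upstream. The windows of Mdm2, Phlda3 and Eda2r, and the other windows of Cdkn1a and Bbc3, had no match with fewer than 5 mismatches, and no member window held TGATGNAA, the core bound by ATF4 with C/EBP partners (3.97% of all windows), or TGACGT, a core bound by factors of the ATF and CREB type (7.51%), on either strand. These letters describe the windows alone, and a response element of Mdm2 is known in its first intron.

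E4f1 was low in every KO library. It stood at 7.12, 7.01 and 6.92 CPM in KO 1 to KO 3, against 20.7, 21.6 and 21.5 CPM in WT 1 to WT 3 (log2 fold change -1.60 ± 0.08 SE, edgeR adjusted p = 0.00142). CPM are read pairs scaled to a common library size after TMM scaling, fold changes are KO over WT, and calls were made at an adjusted p below 0.05 over all tested genes. With a score of midbrain markers as a covariate it was -1.65 ± 0.16 (adjusted p = 0.219), and in WT 1, WT 2, KO 1 and KO 2 alone, whose numbers in the labels are close, -1.57 ± 0.13 (adjusted p = 0.0721). Between 42113465 and 74064707 read pairs were assigned per library. Of the listed markers, 4 of 5 neuronal ones had negative fold changes and all 7 microglial and all 4 endothelial ones positive fold changes, of which edgeR called only the microglial Cx3cr1. The summed level of the neuronal markers was 4678 to 5079 CPM in KO and 5907 to 6836 CPM in WT, that of the microglial markers 81.4 to 127 CPM in KO and 46.4 to 75.6 CPM in WT, and that of the endothelial markers 222 to 313 CPM in KO and 171 to 202 CPM in WT. The meningeal markers stood apart in KO 3 and WT 2, with summed levels of 4654 and 2328 CPM, against 296 and 422 CPM in the other KO and 339 and 801 CPM in the other WT libraries. The embryonic globin gene Hbb-y stood apart in WT 1, at 9.41, 14.7 and 28.2 CPM in KO 1 to KO 3, against 374, 1.65 and 10.4 CPM in WT 1 to WT 3. The globin genes Hba-a1 and Hbb-bt lay above WT in every KO library (adjusted p = 0.202 and 0.209, edgeR). The summed level of the 5 radial glia markers overlapped, with 706 to 745 CPM in KO and 721 to 1016 CPM in WT. Of these only Fabp7 lay below WT in every KO library (log2 fold change -0.58 ± 0.09, adjusted p = 0.0555, edgeR), and 2, Sox2 and Pax6, had positive fold changes (0.13 ± 0.17 and 0.08 ± 0.23). The midbrain markers En1, En2 and Pax5 summed to 0.266 to 1.61 CPM in KO and to 69.9, 33.9 and 3.07 CPM in WT 1 to WT 3, a difference in tissue that cannot be told apart from genotype here. No marker was at 0 in all libraries. The part of these tissue differences in the results below was not tested, and values without a library or with the midbrain score do not test it. That score was -3.05 to -1.31 in KO and -0.19 to 4.12 in WT. As a covariate it cannot be told apart from genotype. With that score as a covariate no gene at all was called, and Ccng1 had 0.61 ± 0.29, Bbc3 0.35 ± 0.40 and Pmaip1 0.55 ± 0.43 on the log2 scale. Cdkn1a moved the other way, to 0.71 ± 0.39, against 0.32 ± 0.20 without the score. In whole brains, fewer cells of a type and less RNA per cell cannot be told apart.

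No p53 target was called in KO brains by edgeR, but 8 of the 10 had a positive fold change, against 49.9% of all tested genes. These 8 include Bax, at 0.01 ± 0.07 on the log2 scale, whose sign turned in 8 of 21 alternatives. In Ccng1, Bbc3, Pmaip1 and Eda2r every KO library lay above every WT library. None of the 10 was called higher, where 0.511% of all tested genes were, and none lower, where 0.492% were. With libraries scaled by their totals alone, the 81 genes called higher and 78 called lower over all genes became 123 and 63, and still no member was called. At an unadjusted p below 0.05 there were 4 members higher and 0 lower, against 10.3% of all genes higher and 9.31% lower. All KO values above all WT values, found in 4 members, occurred in 14.6% of the tested genes, and all KO values below, found in 0 members, in 13% of them. DESeq2 called Ccng1, Pmaip1 and Eda2r higher and 0 members lower, where it called 4.82% of all genes higher and 4.06% lower, and limma called 0. The median log2 fold change of the 10 genes was 0.41, against -0.00 over all tested genes.

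**Figure D1:**
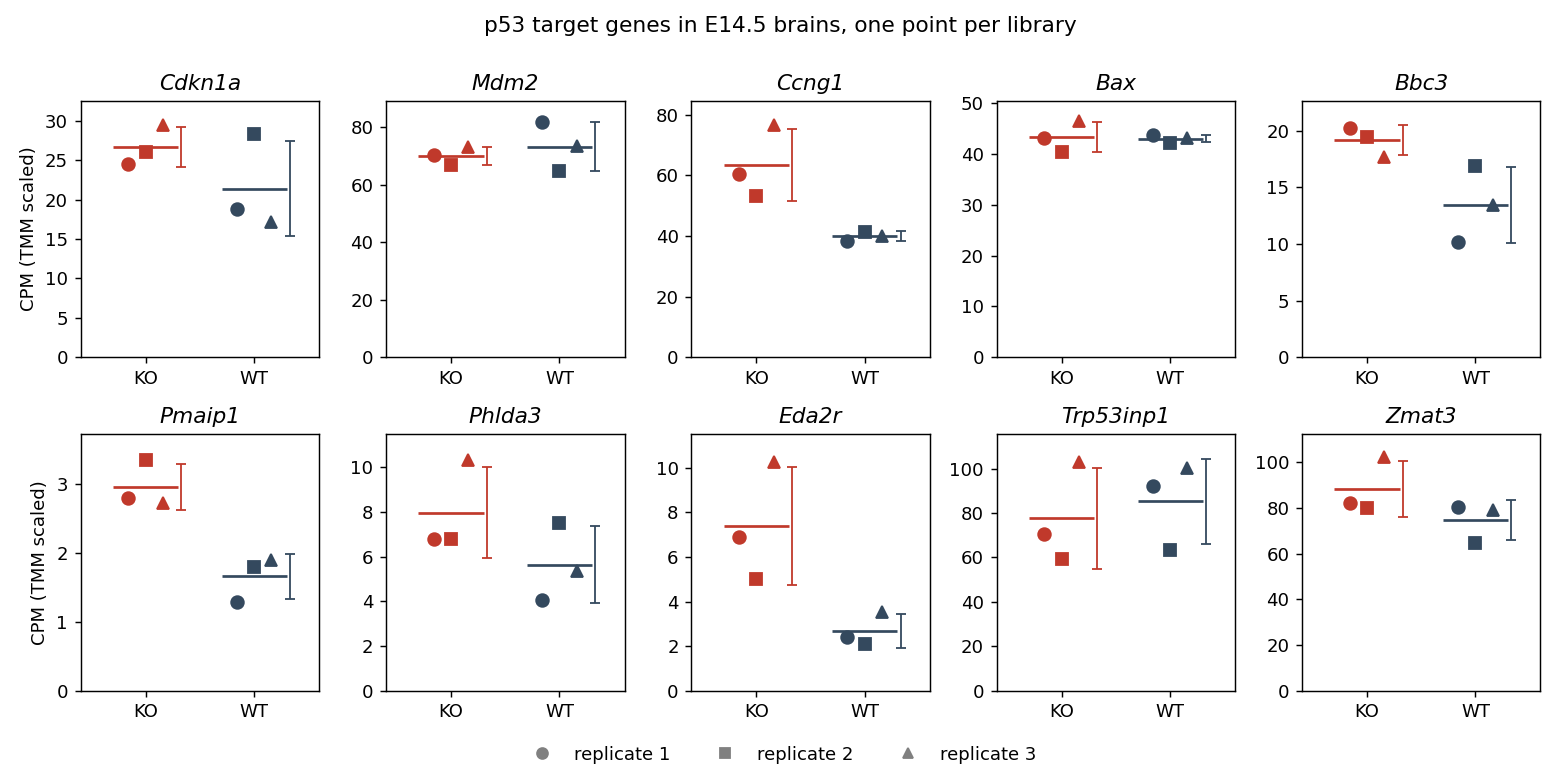
CPM of each p53 target gene (y axis, from 0) in the 3 KO brains on the left and the 3 WT brains on the right. Points are single libraries with a symbol for each replicate number, horizontal lines are group means and bars are ± SD; KO and WT points are apart in Ccng1, Bbc3, Pmaip1 and Eda2r and overlap in the other genes.

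Cdkn1a encodes p21, the inhibitor of cyclin-dependent kinases through which p53 stops the cell cycle (chromosome 17, 29090979 to 29100722). It had 24.5, 26.1 and 29.5 CPM in KO 1 to KO 3, against 18.8, 28.4 and 17.1 CPM in WT 1 to WT 3. WT 2 lay among the KO libraries, so the groups overlapped. The fold was 1.25, with a 95% interval of 0.889 to 1.75 (log2 fold change 0.32 ± 0.20, adjusted p = 0.418, n = 3 per group, edgeR). Without WT 2 all KO libraries lay above the other WT libraries, as in 20.8% of all tested genes. The log2 fold change was then 0.57 ± 0.11 (adjusted p = 0.125, edgeR), the highest of the fits without 1 library. The lowest was 0.18 ± 0.20, without WT 3.

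Of the 2 feedback genes, Mdm2 overlapped between the groups and Ccng1 did not. Mdm2 (chromosome 10, 117688875 to 117710758) had 70.2, 66.9 and 73.2 CPM in KO, against 81.7, 64.6 and 73.3 CPM in WT. All KO libraries lay within the WT range, and the fold was 0.958, with an interval of 0.814 to 1.13. Its log2 fold change of -0.06 ± 0.10 (adjusted p = 0.748, edgeR) was 0.0013 ± 0.11 when libraries were scaled by their totals. Mdm2 is the ligase gene that p53 activates to limit itself, and the activity of p53 was not tested here.

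Ccng1, cyclin G1, brings the phosphatase PP2A to MDM2 and so also acts back on p53 (chromosome 11, 40748552 to 40755309). It had 60.3, 53.2 and 76.5 CPM in KO, against 38.4, 41.4 and 40.0 CPM in WT. The WT libraries lay close together, and KO 3 was the highest of all. The fold was 1.59, with an interval of 1.26 to 1.996 (log2 fold change 0.67 ± 0.14, adjusted p = 0.0890, edgeR). DESeq2 gave 0.67 ± 0.16 and an adjusted p of 9.99e-04. Without KO 3 the log2 fold change was 0.50 ± 0.09, with an adjusted p of 0.161 by edgeR.

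Among the 3 apoptosis genes, Bax overlapped between the groups with a narrow interval, while Bbc3 and Pmaip1 lay above WT in every KO library. Bax, the effector that opens the outer mitochondrial membrane (chromosome 7, 45461695 to 45466903), had 43.1, 40.4 and 46.4 CPM in KO, against 43.7, 42.2 and 43.1 CPM in WT. The KO libraries spread to both sides of the WT values. The fold was 1.01, with an interval of 0.891 to 1.14 (log2 fold change 0.01 ± 0.07, adjusted p = 0.952, edgeR), and its sign turned in 8 of 21 alternatives. Of 1576 exonic bases of Bax in GENCODE, 192 are shared with a predicted gene on the same strand, Gm45808, and of 3553 exonic bases of Cdkn1a, 273 lie opposite another annotated transcript.

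Bbc3 encodes PUMA, a BH3-only protein that releases BAX and BAK from their inhibitors (chromosome 7, 16308398 to 16318334). It had 20.3, 19.5 and 17.7 CPM in KO, against 10.2, 16.9 and 13.4 CPM in WT. The KO libraries were close to each other and WT 2 lay just below the lowest of them. The fold was 1.42, with an interval of 1.04 to 1.95 (log2 fold change 0.51 ± 0.19, adjusted p = 0.220, edgeR). DESeq2 gave an adjusted p of 0.0955.

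Pmaip1 encodes NOXA, a BH3-only protein that binds MCL1. It had 2.80, 3.35 and 2.72 CPM in KO, against 1.29, 1.80 and 1.89 CPM in WT. These levels rest on 200, 191 and 139 read pairs in KO and on 96, 74 and 126 in WT. KO 2 was the highest library, and the lowest KO library, KO 3, lay above the highest WT library. The fold was 1.78, with an interval of 1.23 to 2.58 (log2 fold change 0.83 ± 0.22, adjusted p = 0.135, edgeR). DESeq2 called it, with 0.84 ± 0.25 and an adjusted p of 0.0143.

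Eda2r had the largest fold change of the 10 genes. It encodes a receptor of the tumour necrosis factor family that binds the ectodysplasin isoform EDA-A2, and lies on the X chromosome (97333837 to 97377234). It had 6.90, 5.01 and 10.2 CPM in KO, against 2.42, 2.09 and 3.55 CPM in WT. The lowest KO library lay above the highest WT library, and KO 3 exceeded the 3 WT libraries added together. The fold was 2.74, with an interval of 1.58 to 4.76 (log2 fold change 1.45 ± 0.33, adjusted p = 0.106, edgeR). DESeq2 gave 1.46 ± 0.34 and an adjusted p of 9.47e-04, and edgeR without KO 3 gave 1.14 ± 0.29 and an adjusted p of 0.242. With the score of midbrain markers as a covariate Eda2r had 0.80 ± 0.58 and an adjusted p of 0.982. Xist, transcribed from the inactive X of females, stood at 2638, 2442 and 2477 CPM in KO 1, KO 3 and WT 1 and at up to 16.2 CPM in KO 2, WT 2 and WT 3. Within the libraries with Xist, Eda2r was 6.90 and 10.2 CPM in KO and 2.42 CPM in WT. Within the others it was 5.01 CPM in KO and 2.09 and 3.55 CPM in WT. As every KO library lay above every WT library, any such split gives KO values above WT, and an effect of sex was not tested.

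Phlda3, whose product competes with AKT for membrane lipids (chromosome 1, 135766085 to 135769134), had 6.81, 6.78 and 10.3 CPM in KO, against 4.07, 7.49 and 5.37 CPM in WT. WT 2 exceeded KO 1 and KO 2, so the groups overlapped, and KO 3 was the highest library. The fold was 1.42, with an interval of 0.883 to 2.27 (log2 fold change 0.50 ± 0.28, adjusted p = 0.368, edgeR). It was 0.76 ± 0.26 on the log2 scale without WT 2 (adjusted p = 0.237) and 0.27 ± 0.27 without KO 3 (adjusted p = 0.692).

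Trp53inp1 and Zmat3 did not separate the genotypes. Trp53inp1, a stress-induced partner of p53 that also takes part in autophagy (chromosome 4, 11156441 to 11174379), had 70.7, 59.1 and 103 CPM in KO, against 92.2, 63.3 and 100.03 CPM in WT. It was lowest in replicate 2 of both groups, and its fold of 0.911 had an interval of 0.596 to 1.39 (log2 fold change -0.13 ± 0.25, adjusted p = 0.794, edgeR). Zmat3, an RNA-binding zinc finger protein that controls splicing and stability of transcripts (chromosome 3, 32334792 to 32365665), had 82.0, 79.9 and 102 CPM in KO, against 80.5, 64.8 and 79.0 CPM in WT. KO 2 fell within the WT range, and the fold was 1.18, with an interval of 0.946 to 1.46 (log2 fold change 0.23 ± 0.13, adjusted p = 0.363, edgeR).

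**Figure D2:**
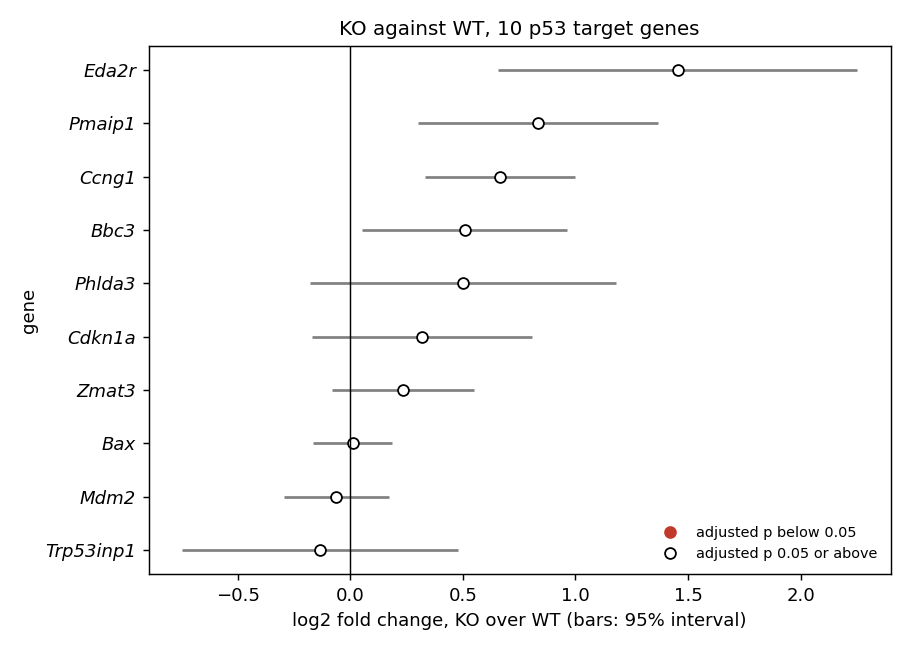
Log2 fold change of each p53 target gene, KO over WT (x axis), with genes in order of fold change down the y axis. Bars are 95% intervals from the edgeR fit and open circles mark an adjusted p of 0.05 or above; intervals of Eda2r, Pmaip1, Ccng1 and Bbc3 lie above 0, and none of the 10 genes was called.

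The order of the libraries differed between the 10 genes. KO 3 was the highest of the 6 libraries in 7 genes and the highest KO library in 8, and WT 1 was the lowest of the 6 in 4 genes. Without WT 1 the log2 fold changes of these 4 were 0.64 ± 0.17 for Ccng1, 0.34 ± 0.14 for Bbc3, 0.68 ± 0.21 for Pmaip1 and 0.31 ± 0.27 for Phlda3. The median difference of the members from the WT mean, on the log2 scale, was 0.27, 0.31 and 0.48 in KO 1 to KO 3, and -0.09, 0.01 and 0.02 in WT 1 to WT 3. Within WT, Cdkn1a, Ccng1, Bbc3 and Phlda3 were highest in WT 2, while Mdm2, Bax, Eda2r, Trp53inp1 and Zmat3 were lowest there. With KO 3 and WT 2 both left out, 6 members had all KO values above all WT values and 3 had all below, against 26.8% and 23.9% of all tested genes, and no member was called. In that fit, which was added after the data were seen, Trp53inp1 had a log2 fold change of -0.58 ± 0.12 (adjusted p = 0.1601) and Zmat3 of 0.01 ± 0.07 (adjusted p = 0.959), against -0.13 and 0.23 with all libraries. Eda2r had 0.99 ± 0.28 (adjusted p = 0.215), against 1.45.

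**Figure D3:**
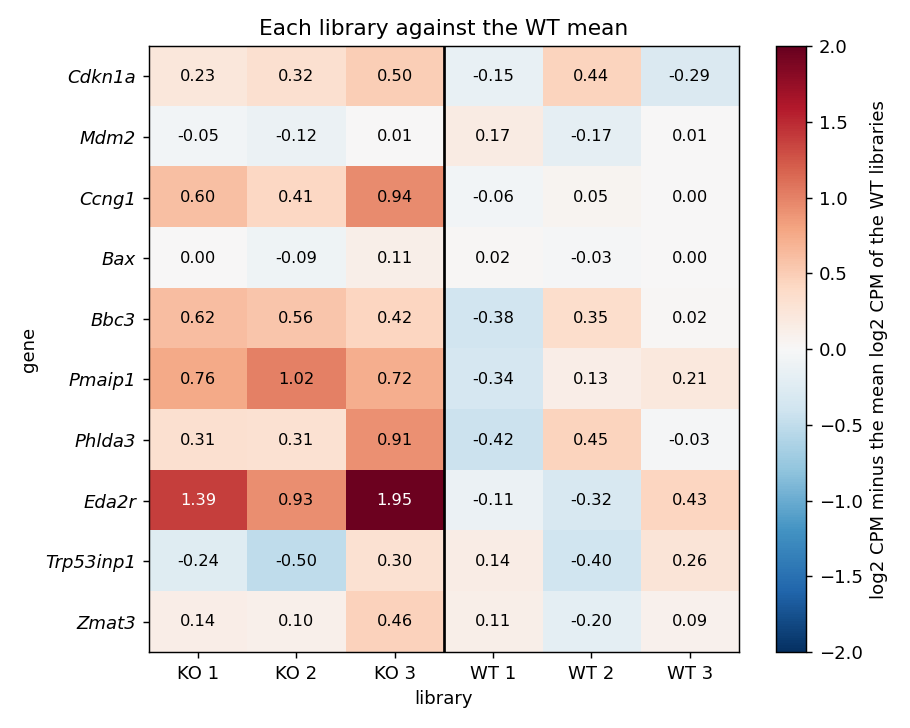
Log2 CPM of each p53 target gene (rows) in each library (columns, KO left and WT right) minus the mean log2 CPM of the WT libraries, printed in each cell. Eda2r reaches 1.95 in KO 3, Mdm2 and Bax stay within 0.18 of the WT mean in all 6 libraries, and Cdkn1a, Bbc3 and Phlda3 are raised in WT 2.

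Levels between genes were compared in TPM, which are corrected for transcript length. Bax was the highest of the 10 in both groups, with 165 ± 10.01 TPM in KO and 166 ± 3.17 TPM in WT (SD, n = 3 each), followed by Mdm2 with 60.6 ± 2.32 TPM in KO and 64.5 ± 7.47 TPM in WT. In KO the next were Ccng1 (47.9 ± 8.40 TPM), Cdkn1a (39.0 ± 3.15), Trp53inp1 (37.0 ± 10.3), Zmat3 (28.8 ± 3.57) and Bbc3 (27.0 ± 2.24), each overlapping the next in its 3 libraries. In WT the order was Trp53inp1 (41.4 ± 9.26 TPM), Cdkn1a (31.8 ± 9.10), Ccng1 (30.8 ± 1.24), Zmat3 (24.9 ± 2.82) and Bbc3 (19.3 ± 4.83), and only Ccng1 and Zmat3 were apart among these neighbours. Phlda3 followed with 15.8 ± 3.81 TPM in KO and 11.4 ± 3.50 TPM in WT. Eda2r and Pmaip1 were the lowest, with 4.79 ± 1.71 and 3.01 ± 0.363 TPM in KO and 1.69 ± 0.511 and 1.72 ± 0.337 TPM in WT, and overlapped each other in both groups.

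The deposited tables also give a mean transcript length per gene, weighted by the estimated share of each listed transcript, which moves only when that mix moves. It could vary in the 4 members with more than 1 transcript. Eda2r, with 3 transcripts, averaged 4188, 3949 and 3957 bases in KO 1 to KO 3, against 4363, 4241 and 4140 bases in WT 1 to WT 3, and KO 1 lay within the WT range. Mdm2 averaged 3087, 3088 and 3076 bases in KO and 3075, 3074 and 3076 bases in WT, again overlapping. Trp53inp1 averaged 5403, 5402 and 5402 bases in KO and 5401, 5400 and 5400 bases in WT, a gap without overlap of about a base, and Cdkn1a stayed between 1913 and 1915 bases in both groups. With 3 libraries against 3, an exact permutation test cannot give a p below 0.1, so these lengths are given as values alone.

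Trp53 itself overlapped between the groups, with 69.7, 58.9 and 115 CPM in KO, against 85.1, 67.3 and 85.7 CPM in WT (log2 fold change 0.03 ± 0.26, adjusted p = 0.958, edgeR). Its sign turned without KO 3, where the log2 fold change was -0.31 ± 0.15 (adjusted p = 0.439). Mdm4, the partner of MDM2 that blocks p53, had 243, 214 and 222 CPM in KO, against 229, 200 and 214 CPM in WT (0.08 ± 0.08, adjusted p = 0.610, edgeR). Over 21 tested regulators of p53 the median log2 fold change was -0.08. All KO values lay above all WT values in 3 of them and below in 3, against 14.6% and 13% of all tested genes. DESeq2 called 2 higher and 2 lower, against 4.82% and 4.06% of all genes. By edgeR only E4f1, the gene knocked out, was called, lower in KO, where 0.492% of all genes were called lower and 0.511% higher. Rpl5 and Rpl11, ribosomal proteins that can bind and block MDM2, were the next by p, at 0.44 ± 0.09 for Rpl5 (edgeR adjusted p = 0.0873) and 0.35 ± 0.08 for Rpl11 (adjusted p = 0.0953) on the log2 scale, and their reads can be shared with pseudogenes. Cdkn2a, whose product ARF blocks MDM2, was too low to be tested.

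A wider list of 40 other genes reported as p53 targets, all tested, held 1 gene called higher by edgeR and none lower. That gene was Sesn2, a leucine sensor upstream of mTORC1 that ATF4 also induces, with 34.9, 30.4 and 35.0 CPM in KO, against 7.10, 7.08 and 6.96 CPM in WT (log2 fold change 2.24 ± 0.09, adjusted p = 0.00103). Of the 40 genes, 30 lay higher in KO by their fitted value, the median log2 fold change was 0.19, and 15 genes had all KO values above all WT values and 0 all below, against 14.6% and 13% of all tested genes. At an unadjusted p below 0.05, 14 were higher and 1 lower (Trp53i11, named after its values were seen), against 10.3% and 9.31% of all genes. DESeq2 called 10 higher and 0 lower, against 4.82% and 4.06%. The call of Sesn2 ended, at a similar fold change, with the midbrain score as a covariate (2.21 ± 0.20, adjusted p = 0.219) and in WT 1, WT 2, KO 1 and KO 2 alone (2.21 ± 0.14, adjusted p = 0.0637).

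Next by p in this list were Ddit4, Gdf15, Dcxr, Polk and Tnfrsf10b, none of them called by edgeR. Ddit4, an inhibitor of mTORC1 that several stresses induce, had 96.4, 74.6 and 86.0 CPM in KO, against 55.4, 53.2 and 56.5 CPM in WT (log2 fold change 0.64 ± 0.10, adjusted p = 0.0529). Gdf15, a secreted stress factor, was barely detected, with 14, 28 and 15 read pairs in KO and 3, 1 and 1 in WT. Dcxr, a carbonyl reductase, had 1.15 ± 0.21 (adjusted p = 0.0684), Polk, a DNA polymerase of translesion synthesis, 0.58 ± 0.11 (adjusted p = 0.0694), and Tnfrsf10b, a death receptor, 1.09 ± 0.28 (adjusted p = 0.129). In all 5 genes each KO library lay above each WT library, which was so in 14.6% of all tested genes. These 5 were picked by their p, which favours such a gap.

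**Figure D4:**
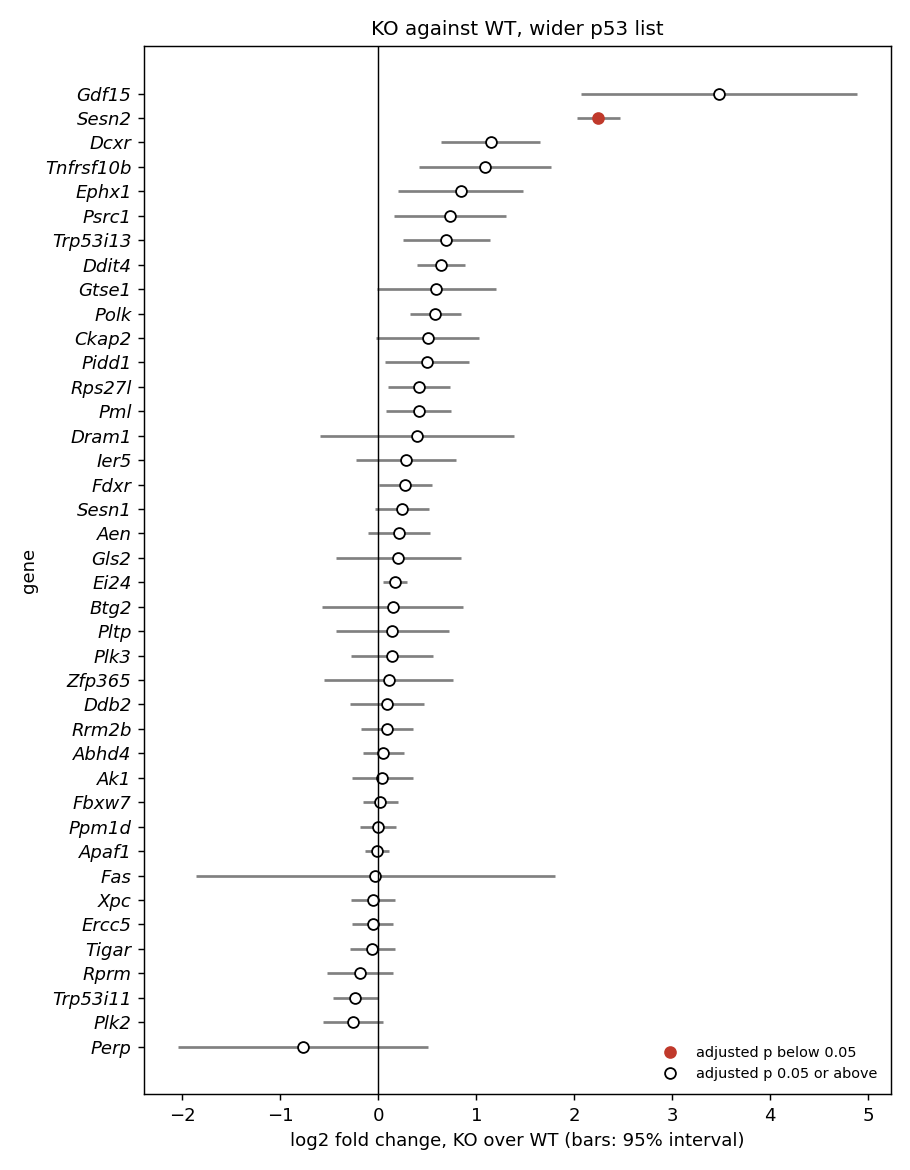
Log2 fold change, KO over WT (x axis), of the 40 genes of the wider p53 list, in order of fold change down the y axis. Bars are 95% intervals from the edgeR fit, the filled circle marks the call of Sesn2 and open circles mark genes that were not called; 30 of the 40 points lie above 0.

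Of 14 tested genes of the stress response that shares targets with p53, edgeR called 9 higher and 0 lower, where it called 0.511% of all genes higher and 0.492% lower, with a median log2 fold change of 1.91. Trib3, a pseudokinase induced by CHOP, had 8.94, 7.20 and 7.19 CPM in KO, against 0.685, 0.365 and 0.256 CPM in WT (4.13 ± 0.38, adjusted p = 0.00851, edgeR). Chac1, which degrades glutathione, rose by 2.99 ± 0.21 (adjusted p = 0.00254), and Ddit3, the gene of CHOP, by 1.22 ± 0.11 (adjusted p = 0.00751) on the log2 scale. Atf4 had 0.57 ± 0.10 and an adjusted p of 0.0588. The calls of Trib3 and Ddit3 ended without KO 1 (adjusted p = 0.0700 for each) and without both KO 3 and WT 2 (0.0745 for Trib3 and 0.0572 for Ddit3), and that of Ddit3 also without WT 3 (0.0558). Over the fits without 1 library the log2 fold change was 3.85 to 4.66 for Trib3 and 1.13 to 1.26 for Ddit3.

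Of the wider BCL2 and caspase family, which carries out the apoptosis that Bax, Bbc3 and Pmaip1 belong to, none of 19 tested genes was called by edgeR. At an unadjusted p below 0.05, 3 were higher and 3 lower, where 10.3% of all genes were higher and 9.31% lower. DESeq2 called 2 higher and 0 lower, against 4.82% and 4.06% of all genes, and the median log2 fold change was -0.03. The smallest p belonged to Bcl2l2, a survival protein, with 56.9, 56.6 and 54.1 CPM in KO, against 48.0, 49.8 and 48.8 CPM in WT (0.19 ± 0.06, adjusted p = 0.158). Casp8, the initiator caspase of death receptors, had a log2 fold change of 0.68 ± 0.21 (adjusted p = 0.166). The BH3-only gene Bad had -0.26 ± 0.08 (adjusted p = 0.182) and Bcl2l1, the gene of BCL-XL, -0.22 ± 0.08 (adjusted p = 0.228), both by edgeR.

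The genes whose log2 CPM over the 6 libraries was most like the mean standardised level of the 10 p53 targets were Elk3, Calcrl, Arhgap10, Map3k3 and Ola1, with Pearson's r between 0.992 and 0.998. These r values describe 6 libraries of 2 groups and were the highest among all tested genes other than predicted gene models. Elk3, a factor of the ETS family, had 28.5, 25.6 and 37.6 CPM in KO, against 21.5, 20.8 and 23.0 CPM in WT (log2 fold change 0.49 ± 0.15, adjusted p = 0.168, edgeR). Calcrl, the receptor subunit for adrenomedullin, had 7.04, 6.24 and 9.29 CPM in KO, against 5.56, 5.55 and 5.97 CPM in WT. In all 5 genes KO 3 was the highest library, as it was in 7 of the 10 members, and the choice by likeness favours this. None of the 5 was called, and the adjusted p lay between 0.168 and 0.285.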

How the data were processed

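The authors deposited 1 RSEM table per library. The deposited expected counts are estimated read pairs per gene, the deposited TPM correct them for transcript length and library size, and the deposited transcript length, a value of another kind, is an average over the listed transcripts. Tools named in the submitters' processing notes are Trimmomatic, FastQC, RSEM (1.2.28) and STAR (2.5.3a), with GRCm38, while settings and strand were not given. FPKM were not used.

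Expected counts were rounded and tested with edgeR (4.0.16): filterByExpr, TMM scaling, a robust quasi-likelihood F test of KO against WT, two-sided, and Benjamini-Hochberg adjustment over all 15848 tested genes. Intervals at 95% use the SE and degrees of freedom of that test and are not adjusted. The test was checked on simulated counts. Alternatives were DESeq2 (1.42.0), limma (3.58.1) on voom or on log2(TPM + 1) or log2(TPM + 0.1) (filter of TPM 1 in 3 libraries), other filters and scalings, a replicate block, a midbrain covariate and left-out libraries. Fits without Rn45s and without KO 3 and WT 2 were added after the data were seen.

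The members and lists were chosen with earlier results of these data known. Besides the members, the text names E4f1, Trp53, Mdm4, 5 stress genes, the called or lowest-p genes of each list (up to 6, 3 and 4) and the 5 genes most like the members. Pairs of libraries of 1 group differed well beyond sampling noise (chi-square per degree of freedom 45.1 to 175), so none was counted as a repeat. Coordinates and promoter windows are from RefSeq (GRCm38) and exon overlaps from GENCODE.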

Additional observations from a re-analysis of the deposited data

How the results depend on the processing

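The 10 members gave 210 values under 21 alternatives each. Of these, 196 kept their direction and their side of the threshold, 3 became calls (Ccng1, Pmaip1 and Eda2r by DESeq2, which raised the count of members called higher to 3) and 11 changed sign. Bax had log2 fold changes of -0.01 under limma on log2(TPM + 1) with or without a filter (-0.0103 each), on log2(TPM + 0.1) (-0.0104) and with the midbrain score (-0.0078), -0.0365 with WT 1, WT 2, KO 1 and KO 2 alone, -0.0691 without both KO 3 and WT 2, and between -0.0472 and 0.0574 over the fits without 1 library. Mdm2 turned to 0.0013 under library totals and lay between -0.1451 and 0.0237 without 1 library, and Trp53inp1 between -0.3983 and 0.0281. Trp53 turned negative under voom (-0.031), limma on log2(TPM + 1) with or without a filter (-0.0408 each), on log2(TPM + 0.1) (-0.0414), the replicate block (-0.0209), the same 4 libraries (-0.24), the midbrain score (-0.0925), without KO 3 and WT 2 (-0.42), and lay between -0.31 and 0.21 without 1 library.

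Over all genes, edgeR's 81 higher and 78 lower calls became 780 and 657 by DESeq2, 125 and 122 by limma on log2(TPM + 1), 120 and 121 on log2(TPM + 0.1), 123 and 63 under library totals, 22 and 40 without KO 3 and WT 2, and 12 to 40 and 24 to 42 without 1 library. The 4 libraries alone and the midbrain score left 0 and 0. In the wider p53 list the 1 higher call became 10 by DESeq2, 3 by limma on log2(TPM + 1) and on log2(TPM + 0.1), 2 under library totals and with at least 1 CPM in 3 libraries, 0 with the 4 libraries alone and with the midbrain score, and 1 to 2 without 1 library. The replicate block gave 24 higher and 42 lower calls over all genes and 0 among the members, and Ddit3 lost its call with it (adjusted p = 0.0502). The labels do not say whether replicate numbers pair the brains, and the main fit did not use them. The correlation of deviations was 0.12, 0.17 and 0.02 for the same number. Each KO library correlated best with the WT library of its own number, but WT 3 correlated best with KO 1 (0.12). With the replicate block Eda2r had a log2 fold change of 1.44 ± 0.15 (adjusted p = 0.0570, edgeR), against 1.45 ± 0.33 without it. Pmaip1 and Gdf15 rest on few read pairs.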

Other observations

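Many, but not all, cell cycle genes are known to be lowered by p53 through p21 when division stops. All 29 tested cell cycle genes had a positive log2 fold change. Their median was 0.35, and 49.9% of all tested genes had a positive fold change. None of the 29 was called by edgeR, where 0.511% of all genes were called higher and 0.492% lower. DESeq2 also called none, against 4.82% and 4.06%. With edgeR p-values before adjustment, 1 was higher (Ccnd1, chosen after its values were seen) and 0 lower at 0.05. Over all genes these shares were 10.3% and 9.31%. Ccnd1 was also the only one with all KO values above all WT values. The summed level of the 29 genes was 3253, 2647 and 3718 CPM in KO 1 to KO 3, against 2978, 1675 and 2763 CPM in WT 1 to WT 3. KO 2 lay below WT 1 and WT 3, so the groups overlapped. Replicate 2 was the lowest of each group, as it was for Mdm2, Bax, Eda2r, Trp53inp1, Zmat3 and Trp53. KO 3 had the highest sum of all libraries.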
